A study of Mus musculus with 3 samples.

Results

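The loci described here are windows named for 6 genes that govern whether cortical progenitor cells keep dividing or leave the cell cycle: Ccnd1, Ccnd2, Cdk6, Cdkn1c, Btg2 and Insm1. Each locus is a window of 310 to 490 kb set by position in the mouse genome build mm9, 2080 kb in all, and a peak belonged to a locus when its midpoint fell inside the window. Where each gene lies within its window was not checked, since no mm9 annotation was used here, so a peak is assigned to a window and not to a gene. The windows held 30 of the 14539 Tbr2 peaks and 15 of the 2640 Neurog2 peaks listed for the whole series. Measured values played no part in setting the windows, but the loci were proposed with earlier results of these data known.

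The peaks come from chromatin immunoprecipitation followed by sequencing (ChIP-seq) of cerebral cortices of C57BL/6 mouse embryos at stage E14.5, fixed with disuccinimidyl glutarate (DSG) and then formaldehyde. Of the 3 libraries, 1 was made with a Chemicon antibody against Tbr2, 1 with a non-commercial antibody against Neurog2, and 1 is input chromatin, for which no peaks were used here. With 1 library per factor there is no replicate error, and no test was possible. The comparisons are descriptions of these lists. The tissue was the whole cortex, so binding in more cells and stronger binding per cell cannot be told apart.

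D-type cyclins, encoded by Ccnd1 and Ccnd2, activate the kinases Cdk4 and Cdk6, which phosphorylate the retinoblastoma protein and carry a cell from G1 into S phase. Cdkn1c encodes p57Kip2, a cyclin-dependent kinase inhibitor linked to cell-cycle exit. Btg2, also called Tis21, is an antiproliferative gene expressed in cortical progenitors that undergo neurogenic divisions, and Insm1 encodes a zinc-finger factor that promotes the formation of intermediate progenitors from radial glia. Tbr2, the product of Eomes, is a T-box protein that marks intermediate progenitors. Neurog2 is a proneural basic helix-loop-helix protein that promotes neuronal differentiation.

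Peaks were unevenly spread over the loci. Tbr2 peaks numbered 15 at Insm1, 5 at Btg2, 4 at Cdkn1c, 3 at Ccnd2, 3 at Cdk6 and none at Ccnd1. Neurog2 peaks numbered 6 at Btg2, 6 at Insm1, 2 at Cdkn1c and 1 at Cdk6, with none at Ccnd1 or Ccnd2. The 3 loci of cell-cycle exit and progenitor differentiation (Cdkn1c, Btg2 and Insm1) thus held 24 of the 30 Tbr2 peaks and 14 of the 15 Neurog2 peaks. The 3 loci of the cyclin D and Cdk6 machinery held 6 and 1. This split of the loci was not planned. These pooled counts do not allow for window length, 310 kb for each of the former and 320, 340 and 490 kb for the latter. Insm1 alone gave 15 of the 24 Tbr2 peaks, and the counts at Cdkn1c and Btg2 were only 4 and 5.

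Over the 6 windows the density was 14.4 Tbr2 peaks per Mb, against 6.0 per Mb of autosome, a ratio of 2.4. Neurog2 peaks stood at 7.21 per Mb against 1.08, a ratio of 6.7. A single locus carried much of the first excess: without Insm1 the remaining 5 windows had 8.47 Tbr2 peaks per Mb, a ratio of 1.41 to the autosomes, and 5.08 Neurog2 peaks per Mb, a ratio of 4.72. No replicate library exists against which these ratios could be tested. Of the 9 Neurog2 peaks left without Insm1, 6 were at Btg2, and these became 2 sites when peaks within 2000 bp were merged. The Neurog2 ratio of 4.72 thus rests in large part on closely spaced peaks at Btg2.

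**Figure D1:**
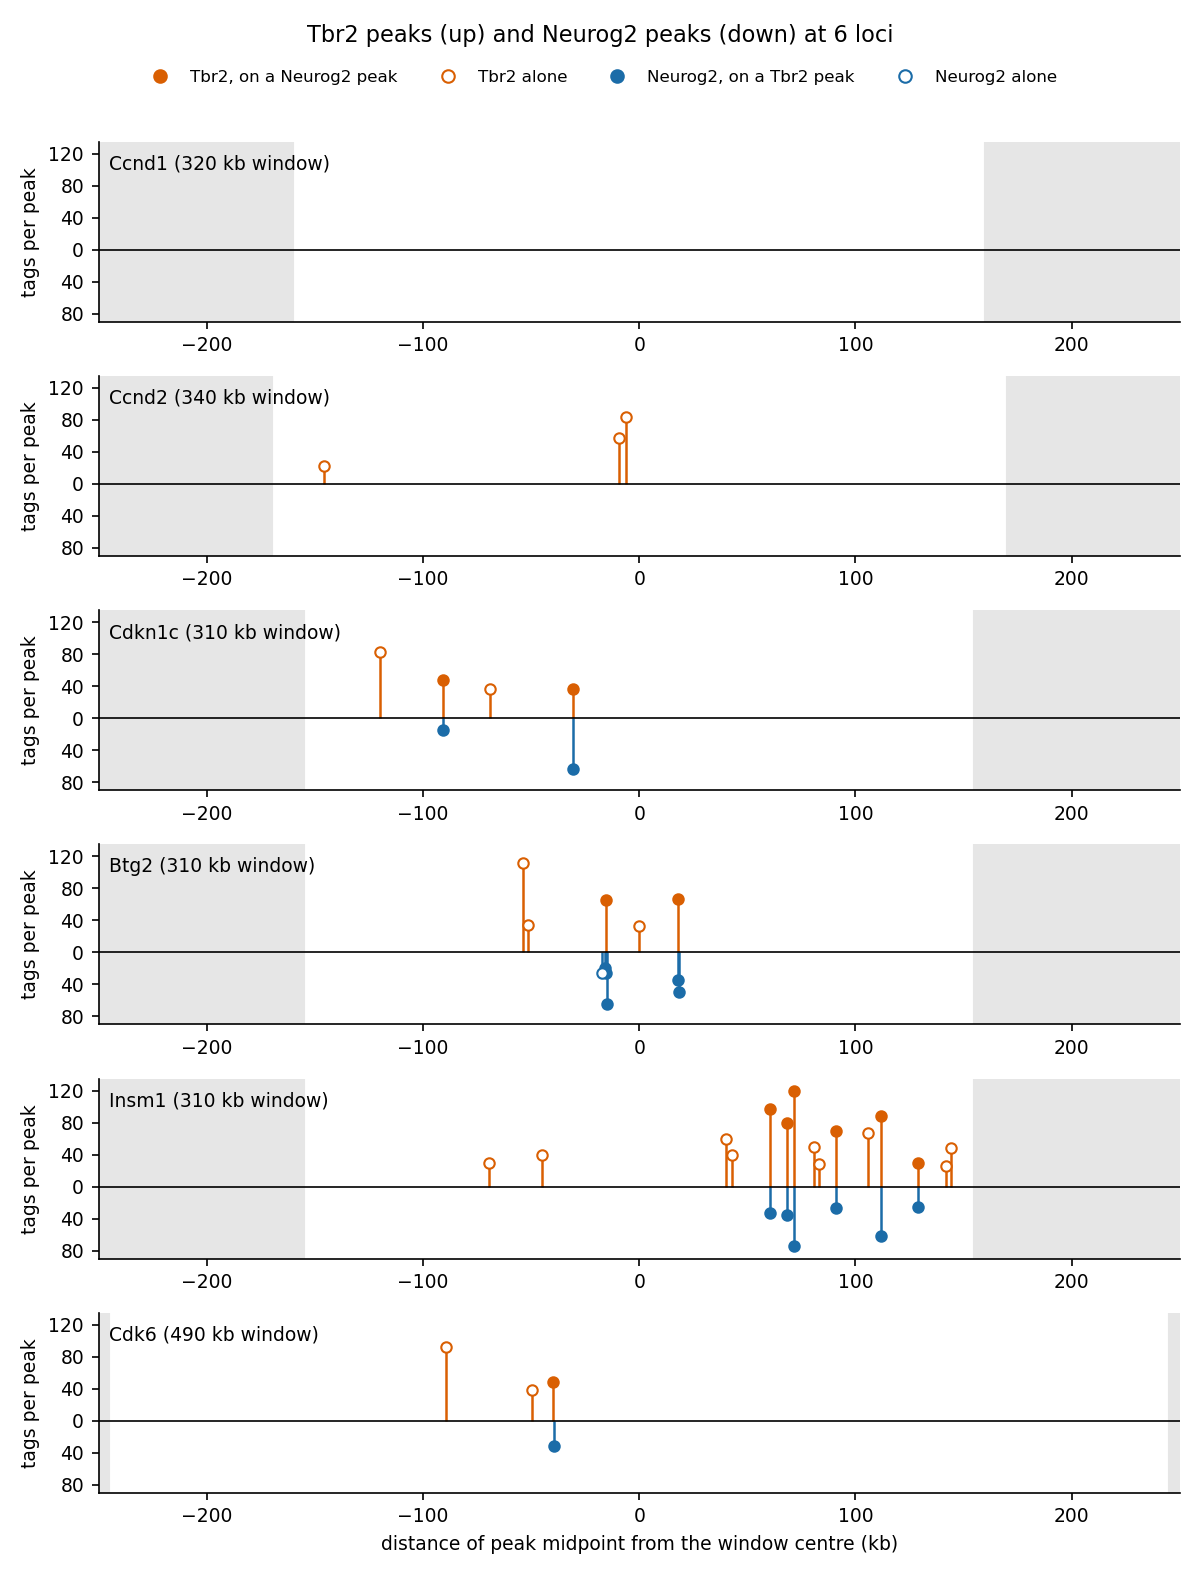
Each panel plots the peaks of 1 locus by distance of the midpoint from the window centre (kb, x axis) and number of sequence tags (y axis), with Tbr2 peaks drawn upward and Neurog2 peaks downward. Filled points overlap a peak of the other factor, and grey areas lie outside the window. Insm1 has 13 of its 15 Tbr2 peaks right of the centre, Btg2 has 5 of its 6 Neurog2 peaks on 2 Tbr2 peaks, and the Ccnd1 window is empty.

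To place each locus against the genome, the autosomes were divided end to end into windows of the same length. Of the 7694 windows of 310 kb, 17.0% held at least 4 Tbr2 peaks, as Cdkn1c did. At least 5, the number at Btg2, were present in 10.9% of windows. At least 15, the number at Insm1, were present in 12 windows, or 0.156%. For Neurog2, 6.71% of the windows held at least 2 peaks, as Cdkn1c did, and 0.325% held at least 6, as Btg2 and Insm1 did. The Neurog2 counts of Btg2 and Insm1 were thus reached by few windows, as was the Tbr2 count of Insm1. Windows with at least as many peaks of both factors made up 4.67% for Cdkn1c, 0.299% for Btg2 and 0.078% (6 windows) for Insm1. The Btg2 count rests on closely spaced peaks: when peaks of a list within 2000 bp were merged, an alternative chosen after seeing the data, Btg2 had 2 Neurog2 sites, a number reached by 5.91% of windows, while Insm1 still had 6, reached by 0.169%.

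The cyclin and kinase loci lay within the bulk of the distribution. No Tbr2 peak was present in 32.1% of 320 kb windows and no Neurog2 peak in 77.3%, so an empty window such as Ccnd1 was common. Ccnd2, with 3 Tbr2 peaks, was equalled or exceeded by 31.3% of 340 kb windows, and 76.5% of those windows had no Neurog2 peak. For Cdk6, at least 3 Tbr2 peaks were found in 44.8% of 490 kb windows and at least 1 Neurog2 peak in 31.2%. The first part of the Cdk6 window lies before the first listed peak of chromosome 5, outside the divided stretch. The windows of this division were laid without regard to genes, whereas each locus was chosen for a gene, and gene content was not compared.

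**Figure D2:**
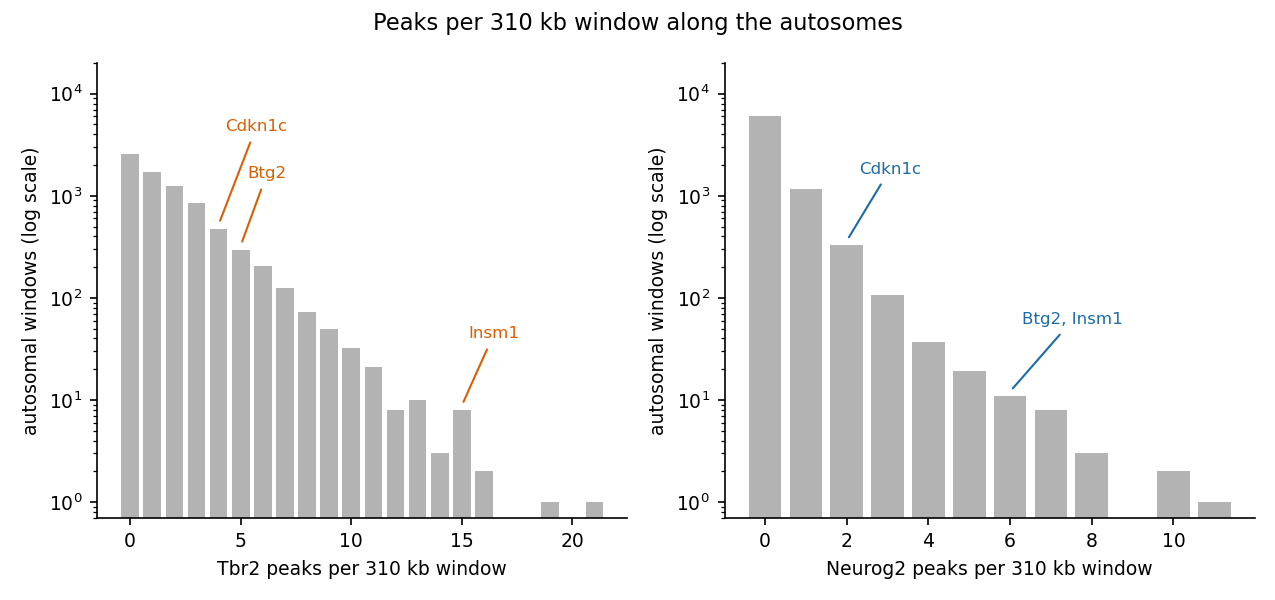
The bars count autosomal windows of 310 kb (y axis, log scale) by their number of Tbr2 peaks (left) or Neurog2 peaks (right), and the labels mark the counts at the 3 loci of that size. Insm1 stands at 15 Tbr2 peaks, where the highest window had 21, and Btg2 and Insm1 stand at 6 Neurog2 peaks, where the highest had 11.

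Promoter sequence was at hand for Btg2 and Cdk6 among the 6 genes, from RefSeq with build GRCm38.p6. These positions are not comparable with the mm9 positions of the peaks, so whether a peak lies on either promoter was not determined. The sequences are shown because both windows held Tbr2 and Neurog2 peaks. They run 5′ to 3′ up to the base before the gene's start, and capitals mark an E-box (CANNTG), the core that basic helix-loop-helix factors such as Neurog2 recognise.
Btg2, chr1:134079156-134079405, minus strand: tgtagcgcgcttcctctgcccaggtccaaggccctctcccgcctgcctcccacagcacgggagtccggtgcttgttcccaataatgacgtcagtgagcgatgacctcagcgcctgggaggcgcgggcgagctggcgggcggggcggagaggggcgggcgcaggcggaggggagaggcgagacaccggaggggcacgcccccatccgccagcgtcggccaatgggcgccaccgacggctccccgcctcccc
Cdk6, chr5:3343643-3343892, plus strand: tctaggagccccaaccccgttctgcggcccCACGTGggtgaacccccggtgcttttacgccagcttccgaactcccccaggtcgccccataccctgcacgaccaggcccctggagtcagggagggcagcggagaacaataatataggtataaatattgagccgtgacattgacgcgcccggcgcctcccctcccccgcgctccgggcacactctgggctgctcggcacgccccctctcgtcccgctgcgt

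The Cdk6 stretch held 1 E-box, CACGTG, and the Btg2 stretch none. Searched on both strands, any CANNTG was present in 66.2% of 32851 promoter stretches of this length, and a single occurrence is common. Neither stretch held CAGCTG (13.0% of all promoters), CAGATG (14.4%) or GGTGTGA, the half-site of T-box factors (3.33%). CAGCTG and CAGATG are themselves forms of CANNTG. Among 21 other cell-cycle genes, such as Ccnd3, Cdk4, Cdkn1b and Rb1, 18 had a promoter in the table. CANNTG was present in 6 of the 18 (Cdk1, Cdk2, Cdk4, Cdkn1a, E2f3 and Rbl1), CAGCTG in 2 (Cdk2 and Rbl1), and CAGATG and GGTGTGA in none.

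Insm1 had the highest Tbr2 density of the 6 loci, 48.4 peaks per Mb, and shared the highest Neurog2 density, 19.4 per Mb, with Btg2. With peaks within 2000 bp merged, Insm1 kept 19.4 Neurog2 sites per Mb and Btg2 had 6.45. Of the 15 Tbr2 peaks at Insm1, 13 lay right of the window centre within 105 kb. An empty stretch of 84.2 kb separated them from the other 2. All 6 Neurog2 peaks lay in this right-hand part, spread over 68.8 kb. The tags of the Tbr2 peaks, which count the sequence reads inside a peak, ran from 26 to 120 with a median of 49. Their fold changes, the authors' values of enrichment over a control that is not named in the sources used here, ran from 5.51 to 19.59. Compared with the autosomal medians of 39 tags and a fold change of 9.61, this was a range from weak to moderately strong peaks. Insm1 led the 6 loci in the number of its peaks, and none of the 15 was among the strongest 10% of the list by score, which is the negative log10 of the authors' p-value multiplied by 10.

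The Tbr2 peak with the highest score at Insm1, at chr2:146116100-146117401, had 120 tags and a fold change of 14.54, and its score was at or above that of 88.3% of the list. It carried the strongest Neurog2 peak of all 6 loci, at chr2:146116614-146117012, with 74 tags, a fold change of 15 and a score at or above that of 94.3% of Neurog2 peaks. The midpoints of this pair were 62.5 bp apart. The strongest peaks of both factors at Insm1 thus shared a site.

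The remaining Insm1 pairs followed in order of Tbr2 score. At chr2:146104939-146106192 the Tbr2 peak had 97 tags (fold change 11.75), and the Neurog2 peak on it, at chr2:146105259-146105542, had 33 (13.16). At chr2:146113070-146113897 there were 79 Tbr2 tags (13.43), and the Neurog2 peak at chr2:146113293-146113648 had 36 (11.05). The midpoints of this second pair were 13.0 bp apart. At chr2:146156259-146157420 there were 88 Tbr2 tags (9.48), with a Neurog2 peak of 62 tags (17.86) at chr2:146156494-146156876. These 3 Tbr2 peaks had scores at or above 84.4% to 85.7% of their list, and the third Neurog2 peak reached 91.9% of its own.

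Weak Tbr2 peaks at Insm1 also carried Neurog2. At chr2:146135147-146136509 the Tbr2 fold change was 5.51, at or above only 3.76% of the list, although the peak was 1363 bp wide with 69 tags. The Neurog2 peak on it, at chr2:146136083-146136304, had 27 tags and a fold change of 6.27, the lowest of the 15. At chr2:146173536-146174248 the Tbr2 peak had 29 tags (8.16), and the Neurog2 peak, at chr2:146173771-146174029, had 25 (16.67). In all, 6 of 6 Neurog2 peaks at Insm1 lay on a Tbr2 peak. Among the 9 Tbr2 peaks without Neurog2, the highest score belonged to that at chr2:146084645-146085381, with 59 tags and a fold change of 19.59.

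The Insm1 peaks were closely spaced. From 1 Tbr2 midpoint to the nearest other the median was 3.27 kb, against 26.9 kb over the autosomes. A run of 6 neighbouring Tbr2 peaks covered 31.6 kb, from chr2:146104939 to 146136509, held 442 of the locus's 867 Tbr2 tags and bore 4 of its 6 Neurog2 peaks. Whether these peaks lie in Insm1 or in a neighbour could not be read from the mm9 positions. In the GRCm38.p6 gene table the nearest protein-coding genes are Cfap61 on 1 side and Ralgapa2 on the other.

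Btg2 was the locus where listed Neurog2 peaks outnumbered Tbr2 peaks, 6 to 5. This order depends on closely spaced peaks: with peaks within 2000 bp merged, Btg2 had 2 Neurog2 sites and 4 Tbr2 sites. The arrangement of the Neurog2 peaks was compact: 5 of the 6 lay on only 2 Tbr2 peaks. The first, at chr1:135959023-135960216, was 1194 bp wide with 66 tags, and held 3 Neurog2 peaks. These stood at chr1:135959130-135959313 with 20 tags, at chr1:135959354-135959632 with 26, and at chr1:135959779-135960255 with 65. The third extended past the right end of the Tbr2 peak and was the strongest of the 6, with a fold change of 13.76 and a score at or above that of 88.4% of the list. On the autosomes, 7 of 14321 Tbr2 peaks (0.0489%) held 3 Neurog2 peaks, and 97 (0.677%) held 2. Among the autosomal Tbr2 peaks that held any Neurog2 peak, these made up 0.348% and 4.82%.

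The second of the Btg2 sites, the Tbr2 peak at chr1:135992350-135993598, was 1249 bp wide with 67 tags. It held 2 Neurog2 peaks, at chr1:135992624-135992963 with 35 tags and a fold change of 9.59, and at chr1:135993176-135993522 with 49 tags and 13.33. Both of these Tbr2 peaks combined many tags with a low fold change. Their tags were at or above those of 79.7% and 80.2% of the Tbr2 list, while their fold changes of 6.32 and 6.65 exceeded or equalled only 10.8% and 13.2%. The sixth Neurog2 peak, at chr1:135957636-135957850 with 26 tags and a fold change of 9.38, was the only Neurog2 peak of the 6 loci off the Tbr2 list. Its midpoint lay 1.88 kb from that of the Tbr2 peak with 3 Neurog2 peaks.

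The strongest Tbr2 peak at Btg2 had no Neurog2 peak. It lay at chr1:135920746-135921781, with 112 tags, a fold change of 20.62 and a score at or above that of 93.4% of the list, the highest standing among all 30 Tbr2 peaks. The nearest Neurog2 midpoint was 36.5 kb away. A weak Tbr2 peak stood 2.26 kb from it, at chr1:135923177-135923875 (34 tags, fold change 5.95), and the last, at chr1:135974601-135975228, had 33 tags (6.47). The strongest Tbr2 peak and the Neurog2 peaks thus lay at separate places in this window. The genes beside Btg2 in GRCm38.p6 are Fmod and Chit1.

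At Cdkn1c a strong Neurog2 peak lay on a weak Tbr2 peak. Its 4 Tbr2 peaks, all left of the window centre, had 83, 48, 37 and 37 tags in order of position, and a pair of them carried Neurog2. The weakest by score, at chr7:150614023-150614833, had a fold change of 5.34, the lowest of the 30 Tbr2 peaks, and a score at or above only 17.2% of the list. On it lay the stronger Neurog2 peak of the locus, at chr7:150614290-150614660, with 64 tags, a fold change of 16.53 and a score at or above 91.1% of the Neurog2 list. Midpoints here were 47 bp apart.

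The other shared Cdkn1c site had the reverse order. The Tbr2 peak at chr7:150553996-150554679 had 48 tags and a fold change of 20.27, and the Neurog2 peak at chr7:150554265-150554416, 3 bp from it by midpoint, had 15 tags, the fewest of the 15. That narrow Neurog2 peak, 152 bp wide, had the highest Neurog2 fold change of the loci, 22.73, so tags and fold change ranked it differently. Tbr2 alone was listed at chr7:150524366-150525159 (83 tags, fold change 25.03) and at chr7:150575725-150576248 (37 tags, 9.35). The first of these was the strongest Tbr2 peak of the locus. Kcnq1 and Slc22a18 flank Cdkn1c in the GRCm38.p6 table, and the windows of Cdkn1c and Ccnd1 are on the same chromosome.

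At Cdk6, as at Btg2 and Cdkn1c, the strongest Tbr2 peak was free of Neurog2. This is the usual state, since 86.0% of autosomal Tbr2 peaks held no Neurog2 peak. Of the autosomal Tbr2 peaks with 68 to 94 tags 28.7% were shared, and of those with 94 to 527 tags 46.1%. The strongest Tbr2 peak at Cdk6, at chr5:3355269-3356211, had 92 tags and a fold change of 33.08, the highest of the 30. It was the first Tbr2 peak listed on chromosome 5 by position. The peak at chr5:3394967-3395574 had 39 tags (13.45). The third, at chr5:3404846-3405772, had 49 tags (9.53) and carried the only Neurog2 peak of the window, at chr5:3405236-3405485 with 31 tags and a fold change of 15.69. The midpoints were 51.5 bp apart, and the next Neurog2 midpoint was 1080.9 kb away.

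Ccnd2 had Tbr2 peaks only. A pair stood 3.16 kb apart near the window centre, at chr6:127080211-127081218 with 58 tags (fold change 7.48) and at chr6:127083416-127084335 with 84 tags (16.49). The score of the latter was at or above that of 87.0% of the list. The third peak, at chr6:126943650-126944174, was weak, with 23 tags (7.21). The Neurog2 peak nearest to the window lay 98.0 kb beyond its right edge. Of the 768 windows of 340 kb with exactly 3 Tbr2 peaks, 64.8% had no Neurog2 peak either.

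The Ccnd1 window had no peak of either factor, as did 31.2% of 320 kb windows. The closest Tbr2 peak was 324 kb left of the window, and none was listed to its right on chromosome 7. Neurog2 peaks stood 146 kb to the left and 88.5 kb to the right. Absence from these lists means that no peak passed the authors' limits in 1 library of unknown depth, and binding under those limits was not measured. Between the cyclin D genes, Ccnd2 thus had listed Tbr2 binding in its window and Ccnd1 did not, a difference of 3 peaks to 0 that has no replicate check.

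**Figure D3:**
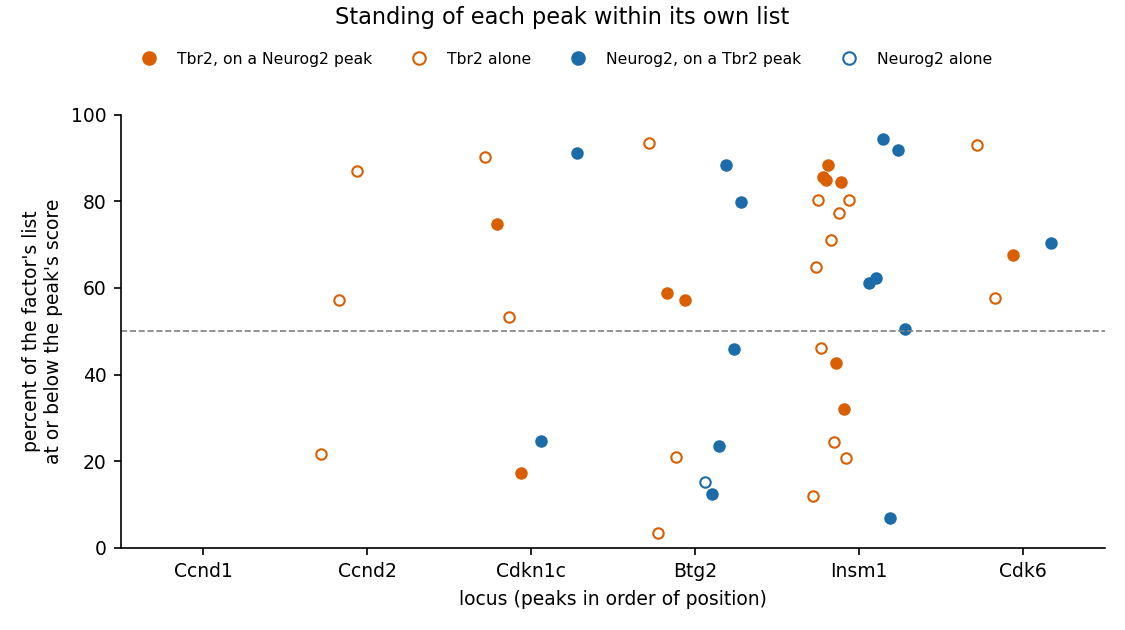
Each point is 1 peak of a locus (x axis, in order of position), placed by the percentage of its own factor's list with a score at or below its own (y axis). The dashed line marks 50%. Open orange points head the Ccnd2, Cdkn1c, Btg2 and Cdk6 columns, where the highest-scoring Tbr2 peaks (87.0% to 93.4%) lack Neurog2, while at Insm1 the top Tbr2 peak is shared. Over the autosomes 86.0% of Tbr2 peaks lack Neurog2.

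Sharing was frequent in the 6 loci as a group. Of the 15 Neurog2 peaks, 14 overlapped a Tbr2 peak by at least 1 bp, 93.3% (95% Wilson interval 70.2 to 98.8), against 82.5% of autosomal Neurog2 peaks. This share lay near the background, which was inside its interval. In the other direction 11 of 30 Tbr2 peaks met a Neurog2 peak, 36.7% (21.9 to 54.5), against 14.0% of autosomal Tbr2 peaks. The intervals cover counting error over peaks only, and neighbouring peaks are not independent. By locus the shared Tbr2 peaks were 6 of 15 at Insm1, 2 of 4 at Cdkn1c, 2 of 5 at Btg2, 1 of 3 at Cdk6 and 0 of 3 at Ccnd2. Without Insm1 the share was 5 of 15, or 33.3% (15.2 to 58.3).

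Over the autosomal Tbr2 list the shared percentage ran from 1.75% among the peaks with fewest tags to 46.1% among those with most, and from 3.21% among the narrowest to 39.2% among the widest. For that reason the 30 peaks were also set against list peaks of like strength. The autosomal list was ordered by tags and divided into 10 classes of about equal size, and each locus peak was given the share of its class. The mean of these shares was 17.8%, and 19.6% with classes of width. The observed 36.7% was above both values. Without Insm1 the same means were 16.9% and 19.0%, against 33.3% observed, and both lay inside the interval of 15.2 to 58.3 given above. This comparison was chosen after the values were seen, and it is not a test. Its classes took no account of Neurog2 density. The loci held 15 Neurog2 peaks to 30 Tbr2 peaks, against 2571 to 14321 on the autosomes. Whether the share of Tbr2 peaks exceeds what this difference in density alone would give was not tested.

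The shared Tbr2 peaks of the loci were tag-rich and wide but not high in fold change. They had a median of 67 tags and a width of 1162 bp, against 40 tags and 699 bp for the 19 Tbr2 peaks alone. Over the autosomes the corresponding medians were 71 against 36 tags and 868 against 685 bp. Fold change went the other way in the loci: the shared peaks had a median of 9.48 and the others 12.0, whereas over the autosomes shared peaks had 13.7 and the others 9.31. Of the 11 shared peaks, 9 exceeded the autosomal median of tags, 10 that of width, and 7 lay below that of fold change. A median divides its list evenly, so 7 of 11 is close to the autosomal share. Among the 7, the fold changes of 9.48 at Insm1 and 9.53 at Cdk6 lay just below the median of 9.61. The medians of the loci rest on 11 and 19 peaks and have no interval. What sets the fold change of the shared peaks was not tested.

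**Figure D4:**
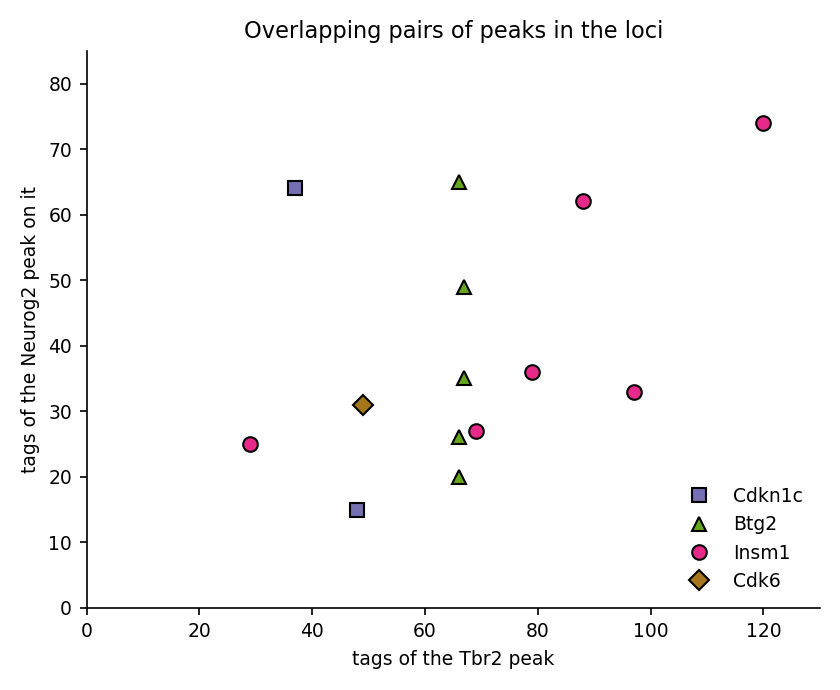
Each point is 1 overlapping pair, with the tags of the Tbr2 peak on the x axis and those of the Neurog2 peak on the y axis, and the marker gives the locus. The Insm1 pair at 120 and 74 tags is highest on both axes, the Cdkn1c pair at 37 and 64 tags has a weak Tbr2 peak with a strong Neurog2 peak, and the Btg2 points share 2 Tbr2 peaks of 66 and 67 tags.

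The centres of the peaks did not align equally well at all loci. In the 14 pairs the midpoints were a median of 140 bp apart, from 3 to 398 bp, against 75.5 bp over 2122 autosomal pairs. At Btg2 the 5 pairs were 126.5 to 398 bp apart, all above the autosomal median, with several Neurog2 peaks on 1 wide Tbr2 peak. The 6 pairs at Insm1 ran from 8 to 365.5 bp, and at Cdkn1c and Cdk6 all 3 pairs were within 51.5 bp. The higher median of the loci thus depends on the Btg2 pairs. Of the 14 shared Neurog2 peaks, 13 lay wholly inside the Tbr2 peak. The same count was not made over the autosomes, so whether this is particular to the loci is not known. Neurog2 peaks are the narrower, with an autosomal median width of 279 bp against 705 bp for Tbr2.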

How the data were processed

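Peaks were taken from 1 list per ChIP library. Bowtie 0.12.3, MACS 1.4 and build mm9 are named in the submitters' processing notes, without roles or settings. The sources used here do not name the control, the handling of duplicate reads or the library depths. GeneProf is named per the file headers as the program from which the lists were exported. The authors deposited for each peak a fold change, an FDR, a p-value and a number of tags, and a score of 750 in every row, which was not used. The score used here is 10 times the negative log10 of the authors' p-value.

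Windows were read from the rule for the loci, and peak starts were written 1-based. The members and lists were chosen with earlier results of these data known. Random windows were not drawn. Instead each of the 19 autosomes was divided end to end from its first to its last listed peak, 2387.7 Mb in all. The loci themselves lie in that span, except for the first part of the Cdk6 window. That window starts at chr5:3200000, before the first listed peak of chromosome 5 at 3355269. Overlap required 1 bp, and shares have 95% Wilson intervals (Python 3.11.15, scipy 1.17.1). Counting and overlap were tested on simulated data. All 6 loci are described, with every Neurog2 peak, and every Tbr2 peak where a locus had at most 6, otherwise the 3 with the highest score and those on a Neurog2 peak. The Insm1 peak named as highest without Neurog2 was chosen after its values were seen. Promoter stretches were the 250 bases before each gene's start. No mm9 genome or annotation was used here, so peaks carry no exon, intron or promoter annotation. The alternatives changed the window, the p-value limit, the overlap rule, the start of the division and the loci included. Merging of nearby peaks, runs of peaks and the classes by tags and width were added after seeing the data.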

Additional observations from a re-analysis of the deposited data

How the results depend on the processing

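Of 60 recomputed values for density, sharing and median tags, 57 stayed within their interval or within 1.5 times the reported value. The exceptions were the Tbr2 density, 8.47 per Mb without Insm1, and the shared percentage of Neurog2 peaks, 66.7% when midpoints had to be within 200 bp and 100% without Btg2. Some of the 57 could not move. Ccnd1 had no peaks, so leaving it out changed no median or share. Counting peaks that overlap a window by 1 bp kept 30 Tbr2 and 15 Neurog2 peaks. The intervals are also wide, 21.9 to 54.5 for the share of Tbr2 peaks. Over all alternatives the Tbr2 density ran from 8.47 to 18.3 per Mb and the Neurog2 density from 4.81 to 10.6. With peaks within 2000 bp merged, the densities were 13.0 and 5.29 per Mb, against 5.59 and 1.01 on the autosomes. The lowest Neurog2 density came from the p-value limit of 1e-10, for which no autosomal density was taken. The share of Tbr2 peaks on a Neurog2 peak ran from 33.3% to 40.7%. At a p-value of 1e-10 or less, 21 Tbr2 and 10 Neurog2 peaks were left in the loci, and 80% of those Neurog2 peaks were shared. The percentages of windows that matched a locus were less stable, and 28 of 48 recomputed values left their interval. At the same p-value limit those with at least as many peaks went from 6.71% to 14.3% for Cdkn1c and Neurog2, and from 44.8% to 23.0% for Cdk6 and Tbr2. Windows with no Tbr2 peak, as at Ccnd1, went from 32.1% to 49.3%. They fell to 1.25% where only windows with a peak of either list were counted, a rule that removes empty windows. The share of 310 kb windows with at least as many Tbr2 peaks as Insm1 ran from 0.104% to 0.231%, and for Btg2 and Neurog2 from 0.26% to 5.91%, the highest after merging peaks within 2000 bp. With 1 library per factor and unknown depth, no spread between experiments can be given.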

Other observations

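The FDR deposited with the peaks did not follow their p-values throughout in these loci. In 161 of 435 pairs of Tbr2 peaks the peak with the smaller p-value had the larger FDR, and in 32 of 105 pairs of Neurog2 peaks. The strongest Tbr2 peak at Btg2 had an FDR of 0.001, and the Tbr2 peak with 3 Neurog2 peaks in the same window, of lower score, had 0.0002. Among the Neurog2 peaks of the loci the FDR ran from 0.0039 to 0.0672. The strongest of them, at Insm1, had 0.0062. The weaker peaks of the loci kept the same order by both values: Tbr2 peaks with an FDR above 0.001 and Neurog2 peaks above 0.009. Within the loci, a limit set on FDR would therefore select peaks differently from a p-value limit only below these values.

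In the division of the autosomes into 310 kb windows, those with most peaks of each factor were on chromosome 5. For Tbr2 it was chr5:132005269-132315268, with 21 peaks in 310 kb. For Neurog2 it was chr5:125495269-125805268, with 11. With other window sizes the highest window was in part on chromosome 8, for Tbr2 at 340 kb (21 peaks) and for Neurog2 at 320 kb (11) and 490 kb (13), while at 340 kb windows on both chromosomes had 11 Neurog2 peaks. Insm1, the locus here with most Tbr2 peaks, had 15 and 6.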
